A study of Mus musculus with 2 samples.

Results

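Immediate-early genes are switched on within minutes of a signal, before any protein has to be made, and their transcripts are short-lived. Several of them encode parts of AP-1, a DNA-binding dimer of a Jun protein (Jun, Junb, Jund) with another Jun or with a Fos protein (Fos, Fosb, Fosl2), and Atf3 pairs with Jun proteins as well. Egr1 and Egr2 are zinc-finger factors and Nr4a1 is an orphan nuclear receptor, both classes induced by antigen receptor and growth factor signals. In lymphocytes these factors lie downstream of cytokine, receptor and stress signals, and tissue digestion and sorting can induce them too.

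The 10 genes Fos, Fosb, Fosl2, Jun, Junb, Jund, Egr1, Egr2, Atf3 and Nr4a1 were taken by symbol, and all 10 were found once among the 31053 features of both libraries. The first library (Zfp36_KO) was from Zfp36-/- mice (also labelled TTP-KO), and the second (WT) from wild-type mice, both of the C57BL/6 strain and with no treatment given in the labels. The product of Zfp36, tristetraprolin (TTP), binds AU-rich 3′ ends of transcripts and promotes their decay. From the small-intestinal lamina propria, cells that were live, CD45+, CD90.2+ and CD127+, and negative for lineage markers, CD3 and TCRβ, were sorted as innate lymphoid cells (ILCs), and the cells of 4 mice per genotype were pooled into 1 library. Age and sex were not given, and the labels name no cell type to which the deletion was limited, so direct effects in a class and effects through other cells cannot be told apart. Neither genotype has a second library, so no test between genotypes could be made. The 95% intervals below take in no spread between mice. Those of levels, ratios and shares of UMIs take in counting error but no spread between cells. For genes with most UMIs in few cells they are therefore too narrow.

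The knockout library held 3522 barcodes and 27733804 UMIs (unique molecular identifiers, counts of single transcripts), and the WT library 3593 barcodes and 24721524 UMIs, with 2 barcode sequences in common. After filtering, 3334 knockout cells (median 5336.5 UMIs) and 3360 WT cells (median 5292.5 UMIs) were kept. Zfp36 itself was at 304 CPM (UMIs of the gene per 1000000 UMIs of the class) in knockout ILC3 and 1189 in WT ILC3, and at 342 CPM in knockout ILC2 and 715 in WT ILC2. It was not absent in the knockout, and the labels do not say whether the counted 3′ tags lie in the deleted part. Sex-linked transcripts split the knockout pool, with 448 knockout cells and 0 WT cells that had a Y-linked UMI but no Xist.

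Cells were placed in classes by the number of distinct marker genes with a UMI, none of them one of the 10 genes. The ILC3 gate held 1006 knockout and 827 WT cells. Of these, 261 knockout and 310 WT cells were CCR6+ (a Ccr6 UMI and no Ncr1 UMI), 304 and 293 were NCR+ (the reverse), and 406 and 202 had neither receptor found. The ILC2 gate held 1107 knockout and 557 WT cells, the ILC1/NK gate 161 and 137, the T cell gate 64 and 1118, and the myeloid gate 464 and 196. Genes not used by the gates fell where the names would have them in the ILC classes. Il22 was at 2986 CPM in knockout ILC3 and 1438 in WT ILC3, Calca at 351 CPM in knockout ILC2 and 523 in WT ILC2, and Ccl5 at 2403 CPM in knockout and 4742 in WT ILC1/NK cells. Itgam, a myeloid integrin, had 0 UMIs in ILC2 of both libraries and at most 2 in any ILC3 subset. The summed myeloid marker list was at 457 CPM in knockout ILC3 and 456 in WT ILC3, and at 156 and 157 CPM in knockout and WT ILC2. The T cell list was at 496 CPM in knockout ILC3 and 739 in WT ILC3, and at 671 and 1157 CPM in knockout and WT ILC2, with Cd5 and Cd6 at 0 in knockout ILC3. In ILC1/NK cells the myeloid list was at 321 CPM in the knockout and 268 in WT, and the T cell list at 738 and 977 CPM. The part of these transcripts in the results was not tested.

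The T cell and myeloid gates did not hold like cells in the 2 libraries. The 64 knockout T-gated cells had Cd4 at 4.87 CPM and Cd8a at 14.6 CPM, against 161 and 128 CPM in WT, and only 46.9% of them lay in clusters with T cell markers, against 95.1% in WT. Of myeloid-gated cells, 79.7% of the knockout and 36.2% of the WT lay in clusters with myeloid markers, and their median was 14441 UMIs in the knockout and 5801 in WT. Ratios for these gates are therefore followed by those of the cells whose gate and cluster carried the same name, called cells of matching cluster. Levels, shares of cells and orders of classes are for the gates as they are. In the ILC3 and ILC2 gates that share was 95.4% or more in both libraries, and in the ILC1/NK gate 68.9% in the knockout and 78.1% in WT. ILC3 with neither receptor found rest on undetected transcripts, and their median was 3075 UMIs in the knockout and 3952 in WT. Of those in ILC3 clusters, 309 of 389 knockout and 107 of 189 WT cells lay in cluster 1, described below. In this subset Nrp1 was at 194 and 85.3 CPM and Xcl1 at 0.73 and 54.5 CPM. It need not hold like cells in both libraries.

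TTP binds UAUUUAU-like stretches of 3′ untranslated regions (3′UTRs), so the letters TATTTAT were searched on the gene's strand in the longest annotated 3′UTR of each gene (GENCODE M21, mm10). Of the 10 genes, 6 held at least 1 copy, against 27.6% of 20987 genes with a 3′UTR. Fosl2, with a 3′UTR of 4653 bases against a median of 961 over all genes, held 3 copies, Fos held 2, and Fosb, Jun, Jund and Atf3 held 1 each. None was found in Junb (485 bases), Egr1, Egr2 or Nr4a1. The sites of 4 genes whose ratios are set against that of Junb below are shown 5′ to 3′ with the TATTTAT in capitals. They lie in the 3′UTRs of Fos (chr12:85477104-85477130 and chr12:85477128-85477154, plus strand), Jun (chr4:95049080-95049106, minus strand), Jund (chr8:70700360-70700386, plus strand) and Atf3 (chr1:191170339-191170365, minus strand).
Fos site 1: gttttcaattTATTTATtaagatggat
Fos site 2: gattctcagaTATTTATatttttattt
Jun: tgcttgtgcaTATTTATaatagcgttc
Jund: gattccgcccTATTTATgtttctactc
Atf3: aaatattactTATTTATcccagtattc
The sites of Fos overlap by a few bases of flank. A match describes the letters and is no evidence of binding.

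Junb, which had the most regular ratio of the 10 genes, and Fos, whose ratio in ILC2 was above 0, are also shown by their promoters from RefSeq (GRCm38.p6), 250 bases before to 50 after the annotated start. The Junb window is chr8:84978699-84978998 on the minus strand and the Fos window chr12:85473640-85473939 on the plus strand. Capitals mark TATAAA in both and TGACGT, the core of the cyclic AMP response element, in Fos.
Junb promoter: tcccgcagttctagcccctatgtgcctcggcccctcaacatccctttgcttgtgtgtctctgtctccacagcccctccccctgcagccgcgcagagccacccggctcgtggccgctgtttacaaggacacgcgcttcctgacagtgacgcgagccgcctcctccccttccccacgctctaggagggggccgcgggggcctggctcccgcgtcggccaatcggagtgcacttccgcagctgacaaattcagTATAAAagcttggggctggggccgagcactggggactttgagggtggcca
Fos promoter: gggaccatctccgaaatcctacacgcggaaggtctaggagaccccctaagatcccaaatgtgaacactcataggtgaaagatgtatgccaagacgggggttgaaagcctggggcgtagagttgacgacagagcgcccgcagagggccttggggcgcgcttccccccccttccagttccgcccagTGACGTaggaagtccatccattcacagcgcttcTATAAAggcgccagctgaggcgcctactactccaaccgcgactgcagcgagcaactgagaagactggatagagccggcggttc
TATAAA began 33 bases before the RefSeq start in Fos and at the first base after the RefSeq start in Junb. In GENCODE M21 the Junb gene starts at chr8:84978718 on the minus strand, so that its TATAAA lies before that start. Searched on both strands, TATAAA was in 13.6% of 32851 promoters of this length and in 2 of the 9 of these genes matched by symbol (Fos and Junb). TGACGT was in 7.51% of promoters and in Fos, Egr2 and Atf3. The AP-1 element TGANTCA was in 7.81% of promoters and in none of the 9, and the CArG box, the serum response factor element, was in 1.63% and in Egr2. Egr1 is not among the 9, so its promoter was not searched. An element outside this window or with other letters would not be found, so no match does not mean that a gene lacks the element. The matches in capitals do not overlap each other.

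The 10 genes did not go 1 way between the libraries. Junb was lower in the knockout in all 5 main classes and in all 3 ILC3 subsets, Atf3 differed in direction from class to class, and Fos and Jun were slightly above the WT level in ILC3 and ILC2, though of these only Fos in ILC2 was above it relative to the median of all genes. A gene was counted as measured with 50 or more UMIs over both libraries, and as lower or higher from a 1.5-fold ratio (0.585 on the log2 scale). Egr2 was measured only in the myeloid gate. In ILC3, 1 of the 9 measured genes was lower (Junb) and 0 were higher, against 4.27% lower and 15.1% higher among all genes. In ILC2, 4 of 9 were lower (Junb, Jund, Fosl2 and Atf3) and 0 higher, against 2.97% and 16.2% of all genes, but this count was 0 when the clusters of ILC2 were weighted alike in both libraries, as described below. For ILC1/NK cells, 1 was lower (Egr1) and 1 higher (Atf3), against 4.79% and 16.4%.

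In CCR6+ ILC3, 1 of 9 was lower (Junb) and 0 higher, against 5.53% and 18.8% of all genes. In NCR+ ILC3, 2 were lower (Junb and Atf3) and 0 higher, against 4.24% and 15.8%, but the lower count was 4 relative to the median of all genes and 0 with Xist cells alone. In ILC3 with neither receptor found, 2 were lower (Junb and Egr1) and 0 higher, against 4.66% and 20.7%, but the lower count was 5 relative to the median of all genes and 1 with 3 or more markers per gate. With Xist cells alone, no gene was lower in ILC3 as a whole or in CCR6+ ILC3, where Junb was at -0.58 and -0.54. In the T cell gate, 1 was lower (Atf3) and 1 higher (Fosb), against 13.8% and 21.4%, and in cells of matching cluster 3 were lower (Fos, Egr1 and Atf3, the last 2 with intervals that held 0) and 1 higher (Fosl2). In the myeloid gate, 5 of 10 were lower (Jun, Junb, Jund, Atf3 and Nr4a1) and 0 higher, against 12.5% and 15.6%. In myeloid cells of matching cluster 3 were lower (Jun, Jund and Atf3), so that the calls of Junb and Nr4a1 ended there.

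The median log2 ratio of all measured genes was above 0, at 0.17 in ILC3, 0.17 in ILC2, 0.13 in ILC1/NK cells, 0.12 in the T cell gate and 0.05 in the myeloid gate. The median of the measured members was -0.29 in ILC3, -0.10 in CCR6+ ILC3, -0.24 in NCR+ ILC3, -0.43 in ILC3 with neither receptor, -0.16 in ILC2, -0.09 in ILC1/NK cells, 0.26 in the T cell gate and -0.57 in the myeloid gate. In cells of matching cluster it was -0.48 in ILC1/NK cells, -0.26 in the T cell gate and -0.35 in the myeloid gate. Relative to the median of all genes, all 9 measured members were below 0 in ILC3 and 8 of 9 were below 0 in ILC2, with Fos the exception at 0.07.

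**Figure D1:**
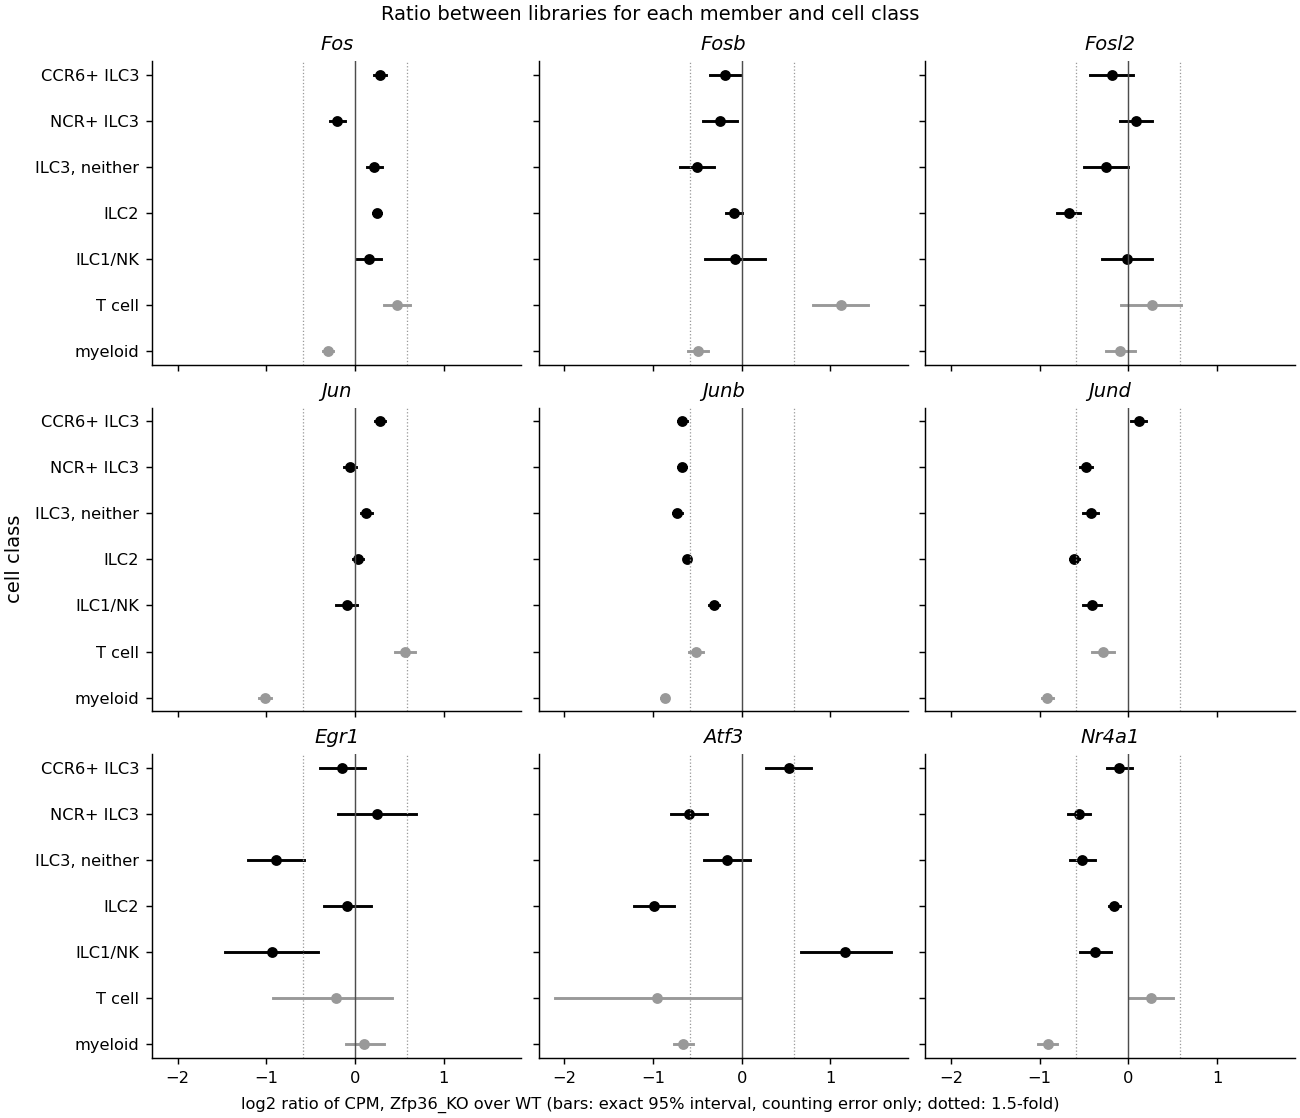
Log2 ratio of CPM, Zfp36_KO over WT (x axis), for 9 genes in 7 classes (y axis), with exact 95% intervals of counting error; dotted lines mark 1.5-fold, and the T cell and myeloid gates are grey because their cells differ between libraries. Junb lies left of 0 in every class, between -0.87 and -0.31, whereas Fos spans -0.30 to 0.47 and Atf3 -0.99 to 1.17.

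Of the Jun proteins, Junb is the partner that often restrains Jun and is needed for several T helper programmes. Junb was at 4789 CPM (95% interval 4722 to 4857) in knockout ILC3 and 7719 CPM (7632 to 7807) in WT ILC3, a log2 ratio of -0.69 (-0.71 to -0.66). The lower level held in each subset: 4994 CPM in knockout and 7956 in WT CCR6+ ILC3 (-0.67), 4761 and 7587 CPM in NCR+ ILC3 (-0.67), and 4607 and 7633 CPM in ILC3 with neither receptor (-0.73). Only 3.03% of all measured genes had a lower ratio in ILC3. In ILC2, Junb was at 3427 CPM in the knockout and 5245 in WT (-0.61, interval -0.64 to -0.59), and in ILC1/NK cells at 5508 and 6830 CPM (-0.31, interval -0.37 to -0.25). Among ILC1/NK cells 14.8% of genes had a lower ratio than Junb. Junb was the only one of the 10 genes with an interval below 0 in 7 of 7 classes (the 3 ILC3 subsets, ILC2, ILC1/NK, T and myeloid).

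Nearly all cells of both libraries had Junb. With every cell thinned to 2000 UMIs, which left out 59 knockout and 21 WT ILC3 and 16 and 7 ILC2, 92.1% of knockout and 95.04% of WT ILC3 had a Junb UMI (94.8% and 98.1% without thinning). The median was 7 Junb UMIs per knockout ILC3 and 15 per WT ILC3. In ILC2 the median was 5 in the knockout and 9 in WT, with 92.8% and 96.0% of cells positive (97.5% and 98.9% without thinning). For ILC1/NK cells it was 10 in the knockout and 13 in WT. No class is known to lack any of these genes, so free RNA had no class to be read from, and its part in the low shares given for Egr1 and Atf3 was not tested.

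**Figure D2:**
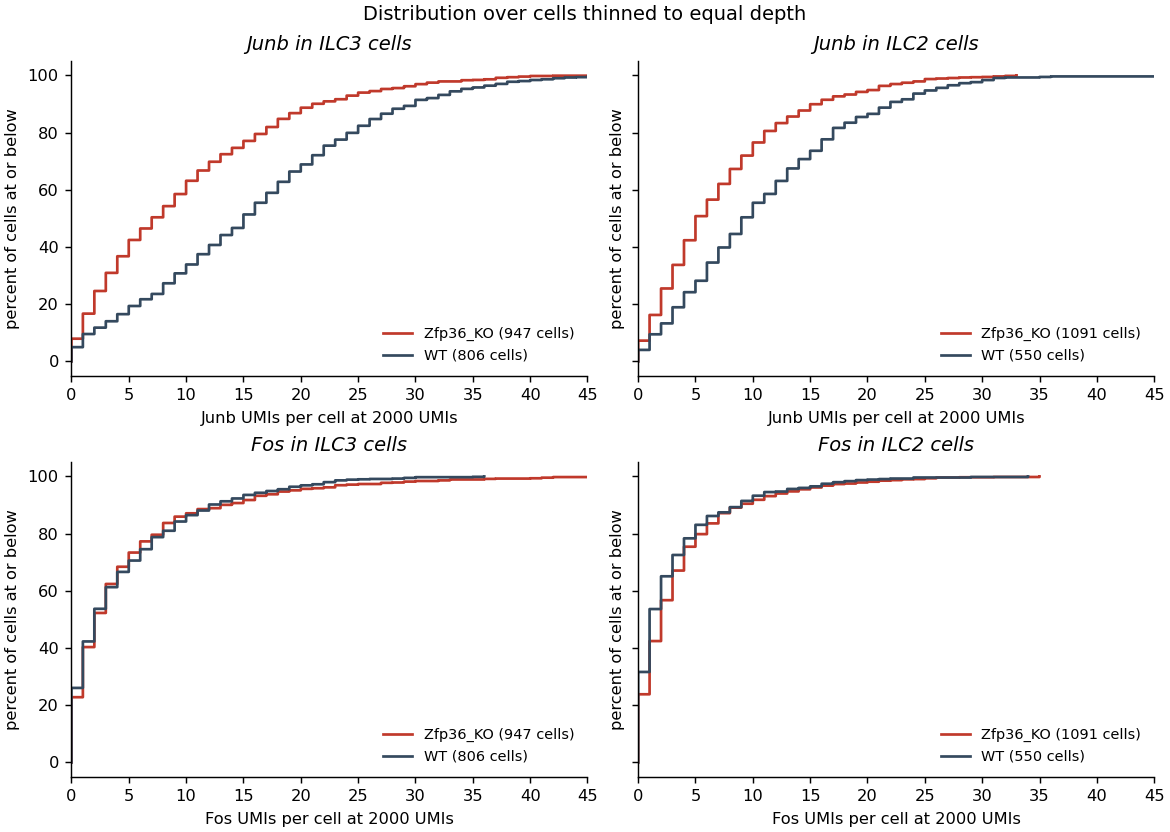
Cumulative percent of cells (y axis) against UMIs of Junb or Fos per cell at 2000 UMIs (x axis), in ILC3 (947 knockout, 806 WT cells) and ILC2 (1091 and 550). The Junb curve of the knockout lies left of the WT curve over its whole range, with medians of 7 against 15 in ILC3 and 5 against 9 in ILC2, while for Fos the medians are 2 and 2 in ILC3 and 2 and 1 in ILC2.

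Jund, the Jun protein expressed most steadily in resting cells, was at 1959 CPM in knockout ILC3 and 2396 in WT ILC3 (-0.29, interval -0.33 to -0.25). The subsets differed: in NCR+ ILC3 it was at 1796 CPM in the knockout and 2504 in WT (-0.48), and in CCR6+ ILC3 at 2268 and 2094 CPM (0.12, interval 0.03 to 0.20, and -0.05 relative to the median of all genes). In ILC2 it was at 1029 CPM in the knockout and 1570 in WT (-0.61), and 66.5% of knockout and 76.2% of WT ILC2 had a UMI at equal depth (86.8% and 93.7% unthinned). The ILC1/NK level was 1786 CPM in the knockout and 2369 in WT (-0.41).

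Jun, the founding AP-1 protein, did not share the direction of Junb in ILC3. It was at 3508 CPM in knockout ILC3 and 3209 in WT ILC3 (0.13, interval 0.09 to 0.16, but -0.04 relative to the median of all genes). In CCR6+ ILC3 it was at 4868 and 3996 CPM in knockout and WT (0.28, and 0.11 relative to that median), and in NCR+ ILC3 at 2244 and 2334 CPM (-0.06, interval -0.12 to 0.01). In ILC2 its 1192 CPM in the knockout and 1164 in WT gave an interval that held 0 (-0.02 to 0.09), as did 1538 and 1641 CPM in ILC1/NK cells (-0.21 to 0.03).

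The makeup of the Jun family differed with these ratios. UMIs from 3′ tags do not scale with transcript length, so the genes' UMIs can be set beside each other as transcripts captured. Junb made up 46.7% (interval 46.2 to 47.2) of Jun-family UMIs in knockout ILC3 and 57.9% (57.5 to 58.4) in WT ILC3, and Jun 34.2% and 24.1%. In CCR6+ ILC3 the Junb share was 41.2% in the knockout and 56.6% in WT, and the Jun share 40.1% and 28.5%, so that both were near equal in the knockout. In ILC2 the Junb share was 60.7% in the knockout and 65.7% in WT, and in ILC1/NK cells 62.4% and 63.0%.

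The UMIs of all 10 genes together were at 14172 CPM in knockout ILC3 and 17512 in WT ILC3 (-0.31), and without Junb at 9382 and 9792 CPM (-0.06). Junb thus made up most of the lower sum in ILC3. In CCR6+ ILC3 the sum without Junb was higher in the knockout, at 12708 CPM against 11123 in WT (0.19), and in NCR+ ILC3 it was lower, at 6867 CPM against 8267 (-0.27).

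Among the Fos proteins, Fos is the classical short-lived partner of Jun. It was at 2262 CPM in knockout ILC3 and 2159 in WT ILC3 (0.07, interval 0.02 to 0.11, but -0.10 relative to the median of all genes). In CCR6+ ILC3 it was at 3527 CPM in the knockout and 2900 in WT (0.28, and 0.11 relative to that median). In ILC3 with neither receptor it was at 2399 and 2061 CPM (0.22, but 0.03 relative to that median). In NCR+ ILC3 it was at 1372 and 1575 CPM (-0.20, interval -0.28 to -0.11). The direction in NCR+ ILC3 was thus opposite to that in CCR6+ ILC3, and the difference between subsets was not tested. In ILC2, Fos was at 1746 CPM in the knockout and 1473 in WT (0.25), with 76.2% and 68.4% of cells positive at equal depth (90.1% and 85.3% unthinned). In ILC1/NK cells it was at 1388 and 1244 CPM (0.16), but at 880 and 1269 CPM (-0.53) in the 111 knockout and 107 WT cells that also lay in the ILC1/NK cluster.

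Fosb and Fosl2 were less abundant. Fosb, which is induced together with Fos, was at 354 CPM in knockout ILC3 and 447 in WT ILC3 (-0.34), and at 448 and 476 CPM in ILC2 (-0.09). Fosl2, a Fos-related protein, was at 277 and 290 CPM in knockout and WT ILC3 (-0.07, interval -0.19 to 0.05, and 0.08 with Xist cells alone) and at 164 and 262 CPM in ILC2 (-0.67, interval -0.80 to -0.55). Thinned, 23.0% of knockout and 32.5% of WT ILC2 had a Fosl2 UMI (43.5% and 57.6% unthinned). Fos made up 78.2% of Fos-family UMIs in knockout ILC3 and 74.6% in WT ILC3, and 74.0% and 66.6% in ILC2.

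Egr1 was found in few cells. It was at 125 CPM in knockout ILC3 and 158 in WT ILC3 (-0.34, interval -0.51 to -0.17, but 0.03 without the 5% of cells with most Egr1), with 11.6% and 10.7% of cells positive at equal depth (16.7% and 17.05% unthinned). The 5% of ILC3 with most Egr1 UMIs held 66.8% of its UMIs in the knockout and 74.5% in WT. In ILC3 with neither receptor its 119 CPM in the knockout and 220 in WT (-0.89) rested on such cells, with 64.8% of knockout and 81.7% of WT UMIs in the top 5%, and the ratio without them was 0.0017. In ILC1/NK cells it had 50 UMIs in the knockout and 92 in WT (67.2 and 129 CPM, -0.94), and a single cell held 27.2% of those in WT. Egr2 had 21 UMIs in knockout ILC3 and 5 in WT ILC3, and 11 and 3 in ILC2, too few for a ratio. In the myeloid gate it had 93 UMIs (12.9 CPM) in the knockout and 17 (9.60 CPM) in WT (0.43, interval -0.33 to 1.27), but 14.0 and 15.3 CPM (-0.13, interval -0.90 to 0.74) in cells of matching cluster.

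Atf3, a stress-induced bZIP factor, was the member with the widest range. It was at 238 CPM in knockout ILC3 and 270 in WT ILC3 (-0.18, interval -0.31 to -0.05), with 14.7% and 19.4% of cells positive at equal depth (21.5% and 25.03% unthinned). In NCR+ ILC3 it was at 219 and 330 CPM in knockout and WT (-0.59), and in CCR6+ ILC3 at 287 and 199 CPM (0.53, interval 0.28 to 0.78), although 13.8% of knockout and 15.6% of WT CCR6+ cells were positive at equal depth. In ILC2 it was at 46.5 and 92.4 CPM (-0.99), and 98.7% of the knockout UMIs lay in the 5% of cells with most of it. In ILC1/NK cells it was at 151 CPM in the knockout and 67.1 in WT (1.17), but 48.2% of the knockout UMIs came from 1 cell and the positive share was 7.95% and 7.46%. In CCR6+ ILC3 the 5% of cells with most Atf3 held 68.8% of its UMIs in the knockout and 59.7% in WT. In ILC2, ILC1/NK cells and CCR6+ ILC3 the Atf3 ratio thus rested on few cells.

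Nr4a1, a marker of recent receptor signalling in lymphocytes, was lower in ILC3 in level and in share of cells. It was at 654 CPM in knockout ILC3 and 861 in WT ILC3 (-0.40, interval -0.47 to -0.32). Of ILC3 thinned to 2000 UMIs, 46.8% in the knockout (interval 43.6 to 50.02) and 63.0% in WT (interval 59.6 to 66.4) had an Nr4a1 UMI (55.5% and 75.3% unthinned), and the same share was 46.2% and 59.9% in CCR6+, 46.3% and 62.5% in NCR+, and 46.8% and 66.7% in ILC3 with neither receptor. The levels were 774 and 830 CPM in CCR6+ ILC3 (-0.10, interval -0.24 to 0.04, and 0.07 with Xist cells alone), 579 and 852 CPM in NCR+ ILC3 (-0.56) and 646 and 925 CPM with neither receptor (-0.52). In CCR6+ ILC3 the level therefore overlapped while the share did not. In ILC2 it was at 744 and 829 CPM (-0.16), and in ILC1/NK cells at 641 and 830 CPM (-0.37).

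The cells of a class can lie differently over its clusters, and in ILC2 the values within clusters differed from those of the whole class. Clusters were made without the 10 genes, and those of ILC2 were cluster 0 (led by Neb, Il17rb and Deptor), cluster 4 (Areg, Csf2 and Il13) and cluster 5 (Socs2, Cpne7 and Calca). Cluster 0 held 699 of 1107 knockout ILC2 and 168 of 557 WT ILC2, cluster 4 held 215 and 268, and cluster 5 held 164 and 111. Cluster 0 was the one with the lowest Junb, at 2549 CPM in the knockout and 2941 in WT, against 5456 and 6626 CPM in cluster 4 and 4997 and 5539 CPM in cluster 5. Within clusters the Junb ratio was -0.21, -0.28 and -0.15, and with knockout cells weighted to the WT shares of the clusters it was -0.24, against -0.61 for ILC2 as a whole.

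Other members of the set also had other ratios within the ILC2 clusters. Jund within clusters 0, 4 and 5 had ratios of -0.35, -0.32 and 0.02, and -0.24 after weighting. Atf3 had 29 and 10 UMIs in cluster 0, and in clusters 4 and 5 its ratios were 0.00 and -0.03, against -0.99 in ILC2 as a whole. Nr4a1, at -0.16 in ILC2 as a whole, was higher in the knockout within each cluster, at 410 CPM against 316 in WT in cluster 0 (0.38), 1737 against 1260 in cluster 4 (0.46) and 893 against 570 in cluster 5 (0.65). Fos was at 1715 CPM in the knockout and 953 in WT in cluster 0 (0.85) and at 1852 and 1398 CPM in cluster 4 (0.40), but at 1943 and 2223 CPM in cluster 5 (-0.19). Fosl2, at -0.67 in ILC2 as a whole, was past 1.5-fold higher in the knockout in cluster 0. It was there at 117 CPM in the knockout and 69.8 in WT (0.74, interval 0.39 to 1.11). In clusters 4 and 5 the Fosl2 ratios were -0.42 and -0.28. After weighting, none of the 9 genes was past 1.5-fold in ILC2, and Nr4a1 was at 0.49, Egr1 at 0.46, Fos at 0.36, Fosb at 0.33, Jun at 0.32 and Fosl2 at -0.25. Clusters were made from other genes that may differ by genotype, so cells of 1 cluster need not be like cells in both libraries.

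In ILC3, Junb was lower in the knockout within each cluster. Cluster 1 (led by Il22 and Rasl11a) held 583 knockout and 254 WT ILC3, cluster 2 (Pcp4, Slc6a20a and Upp1) held 302 and 301, and cluster 6 (Ccr6 and Piwil4) held 79 and 234. Junb was at 4841 CPM in the knockout and 7469 in WT in cluster 1 (-0.63), at 4699 and 7595 in cluster 2 (-0.69) and at 4692 and 8664 in cluster 6 (-0.88), and the weighted ratio was -0.73. The knockout levels were alike in the clusters, between 4692 and 4841 CPM. Jund was lowest relative to WT in cluster 2 (1788 and 2583 CPM, -0.53), against -0.10 in cluster 1 and -0.13 in cluster 6. Fos was at 2891 CPM in the knockout and 2180 in WT in cluster 1 (0.41), at 1380 and 1658 CPM in cluster 2 (-0.26) and at 3091 and 3105 CPM in cluster 6 (-0.01). Jun showed the same order, at 0.33, -0.22 and 0.01. The higher Atf3 of CCR6+ ILC3 lay in cluster 1, at 333 CPM in the knockout and 134 in WT (1.31), whereas CCR6+ cells in cluster 6 had 147 and 232 CPM (-0.66). With clusters weighted to their WT shares, the Atf3 ratio of CCR6+ ILC3 was 0.09.

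**Figure D3:**
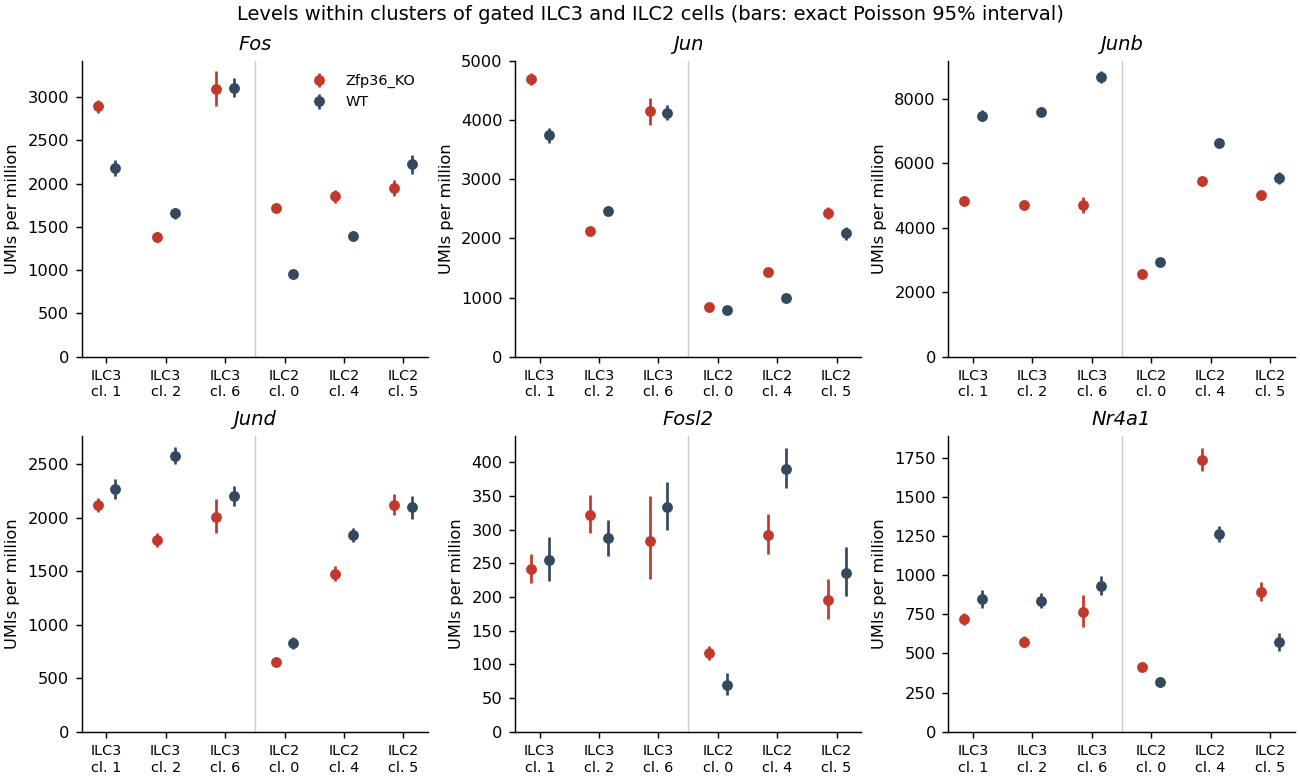
CPM (y axis) of 6 genes in 3 clusters of gated ILC3 and 3 of gated ILC2 (x axis), Zfp36_KO left of WT, with exact Poisson 95% intervals. Junb is lower in the knockout in each cluster, by more in ILC3 (-0.63 to -0.88 on the log2 scale) than in ILC2 (-0.15 to -0.28), and Nr4a1 is lower in the ILC3 clusters and higher in the ILC2 clusters.

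Knockout cells with Y-linked UMIs and no Xist come from other mice than those with Xist and no Y-linked UMIs, so they show the spread inside the pool. In ILC3, Junb was at 3732 CPM in 125 knockout cells with Y-linked UMIs, 5157 CPM in 791 knockout cells with Xist and 7709 CPM in 822 WT cells with Xist. Both parts of the knockout pool lay below WT, and they differed from each other by -0.47 (interval -0.53 to -0.40). With Xist cells only, the ratio of Junb was -0.58 in ILC3, -0.54 in CCR6+ and -0.58 in NCR+ ILC3, just short of 1.5-fold, and -0.60 in ILC2. In ILC2 the parts had nearly the same Junb level, at 3373 CPM in 169 knockout cells with Y-linked UMIs and 3475 CPM in 871 with Xist, against 5254 CPM in WT.

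In ILC3, 6 of the 9 measured genes (Fos, Fosl2, Jun, Egr1, Atf3 and Nr4a1) differed more between the parts of the knockout pool than between the libraries, and in ILC2 3 of 9 did (Fosb, Fosl2 and Egr1). Atf3 was at 68.8 CPM (36 UMIs in 125 cells) in knockout ILC3 with Y-linked UMIs, 282 CPM in those with Xist and 270 CPM in WT cells with Xist. For ILC3 as a whole, only the knockout cells with Y-linked UMIs thus lay below WT. Among cells with Xist the subsets went different ways. Atf3 was lower in knockout NCR+ ILC3 with Xist, at 258 CPM against 332 in WT (-0.36, interval -0.57 to -0.16). It was higher in CCR6+ ILC3 with Xist, at 348 CPM against 199 (0.81). With neither receptor the ratio in Xist cells was 0.08 (interval -0.19 to 0.34). Fos in CCR6+ ILC3 was at 2063 CPM in 32 knockout cells with Y-linked UMIs, 3777 CPM in 208 with Xist and 2897 CPM in WT, on both sides of the WT level. Nr4a1 in ILC3 was at 505, 717 and 862 CPM, and Jund in NCR+ ILC3 at 1735, 1852 and 2507 CPM, in the same order of groups. For Jund the parts of the knockout pool overlapped (-0.09, interval -0.26 to 0.06). Sex and mouse cannot be told apart here. For genes with most UMIs in few cells, such as Atf3 and Egr1, the draw of cells cannot be told apart from them either.

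**Figure D4:**
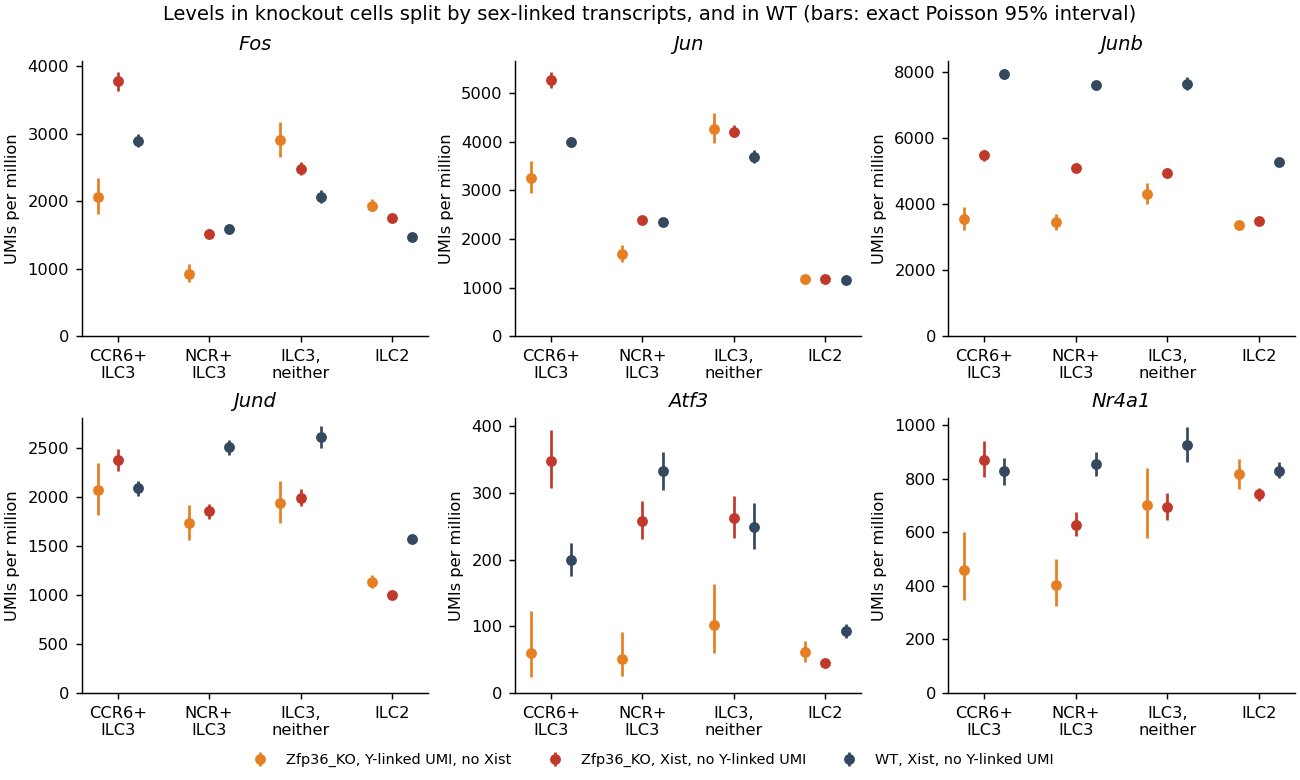
CPM (y axis) of 6 genes in 3 ILC3 subsets and ILC2 (x axis), in knockout cells with Y-linked UMIs and no Xist, knockout cells with Xist and no Y-linked UMIs, and WT cells with Xist and no Y-linked UMIs, left to right, with exact Poisson 95% intervals. Junb is below WT in both parts of the knockout pool in all 4 classes, whereas Atf3 in CCR6+ ILC3 is at 59.7 and 348 CPM in the parts of the knockout pool, on both sides of the 199 CPM in WT. The 59.7 CPM are 7 UMIs in 32 cells, of a gene with most UMIs in few cells, so spread between cells can enter.

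The order of the 5 main classes by level differed between members. Fos was highest in ILC3 and lowest in the T cell gate in both. For Junb the order in the knockout was ILC1/NK cells (5508 CPM), ILC3 (4789), ILC2 (3427), T (3360) and myeloid gate (2295), with the intervals of ILC2 and T overlapping. In WT it was ILC3 (7719 CPM), ILC1/NK cells (6830), ILC2 (5245), T (4816) and myeloid gate (4189), all apart, so that ILC3 and ILC1/NK cells changed places. Atf3 was highest in the myeloid gate, at 327 CPM in the knockout and 516 in WT, and lowest in the T cell gate, at 21.9 and 42.6 CPM. In the knockout that T cell value was 9 UMIs, and its interval overlapped that of ILC2. Jun was highest in ILC3 in both libraries, and lowest in the myeloid gate in the knockout (791 CPM) and in the T cell gate in WT (1103 CPM, overlapping ILC2). Fosl2 was highest in ILC1/NK cells and ILC3, whose intervals overlapped in both libraries, and lowest in ILC2 in the knockout (164 CPM) and in the T cell gate in WT (166 CPM). Nr4a1 was highest in ILC2 in the knockout (744 CPM), while in WT the intervals of ILC3 (861), ILC1/NK cells (830) and ILC2 (829) overlapped.

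**Figure D5:**
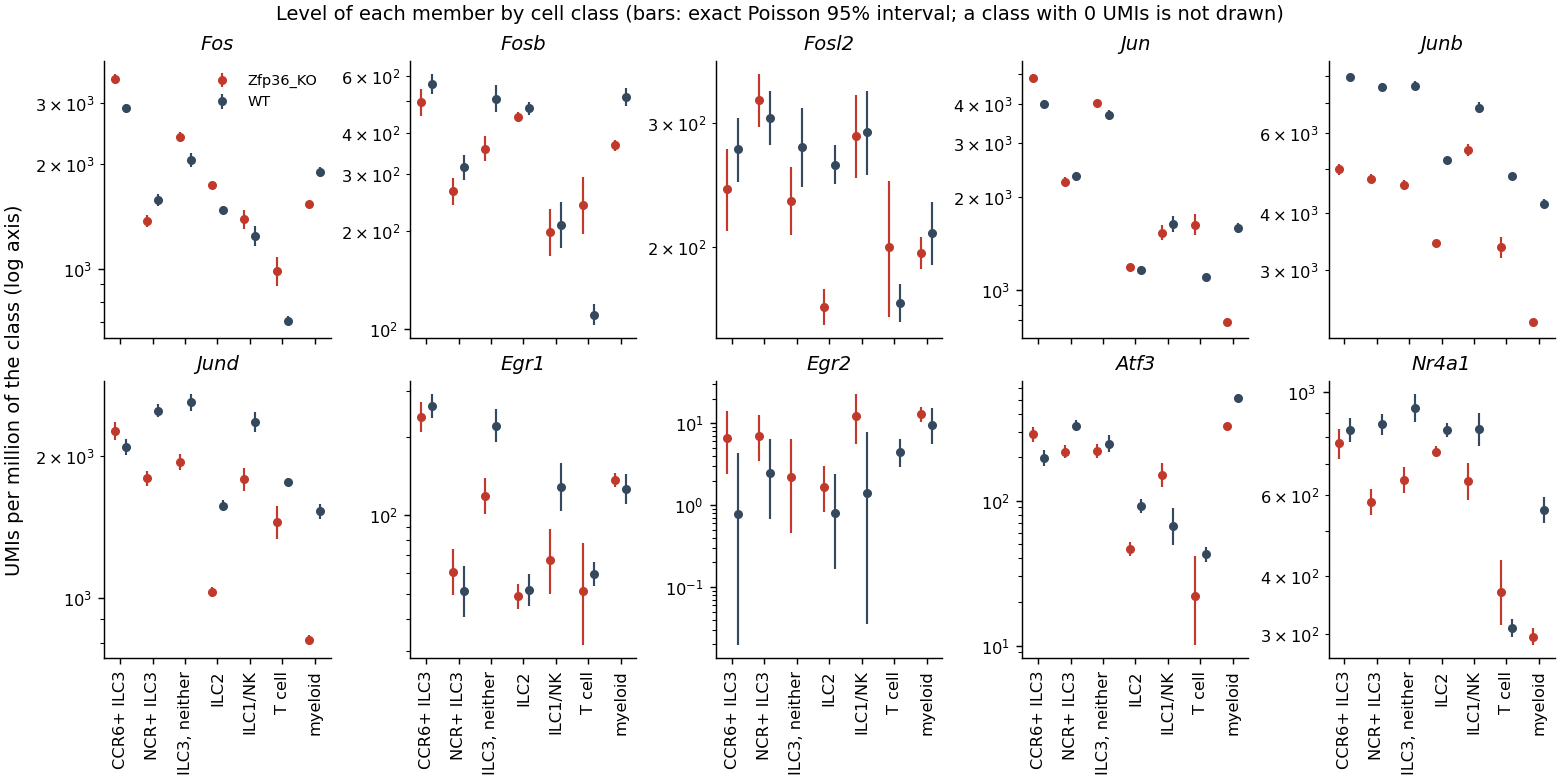
CPM (y axis, log scale) for each of the 10 genes in 7 classes (x axis), Zfp36_KO left of WT, with exact Poisson 95% intervals. Junb lies between 2295 and 7956 CPM, Fos between 707 and 3527 CPM, and Egr2 below 13 CPM throughout.

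In the myeloid gate the members had mostly lower ratios, but these moved with the cells compared. Jun was at 791 CPM in the knockout and 1596 in WT (-1.01), Junb at 2295 and 4189 CPM (-0.87), Jund at 811 and 1526 CPM (-0.91), Nr4a1 at 296 and 556 CPM (-0.91) and Atf3 at 327 and 516 CPM (-0.66). In the 370 knockout and 71 WT cells that also lay in myeloid clusters, Junb was at 2136 and 2420 CPM (-0.18) and Nr4a1 at 261 and 335 CPM (-0.36), while Jun (-0.74), Jund (-0.72) and Atf3 (-0.94) were still past 1.5-fold. The makeup of these cells still differed. Cluster 9 (led by Plet1) held 196 knockout and 25 WT cells, and cluster 10 (Apoe and C1qa) held 151 and 34. In cells with at least 2 of the macrophage genes C1qa, C1qb and C1qc (139 knockout, 58 WT), Fos was at 2548 and 2288 CPM (0.16), and in the rest of the gate at 1163 and 1768 CPM (-0.60). Jun was at -0.58 in these C1q cells, just short of 1.5-fold, and at -1.31 in the rest. The part that the different makeup of the gate plays in these ratios was not tested.

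In the T cell gate, Junb was at 3360 CPM in the knockout and 4816 in WT (-0.52), and at 3589 and 4870 CPM (-0.44) in the 30 knockout and 1063 WT cells that lay in T cell clusters. Jun was at 1632 and 1103 CPM (0.57), and at 1526 and 1105 CPM (0.47) in those cells. Fos was at 982 and 707 CPM (0.47) but at 415 and 664 CPM (-0.68) in the cells in T cell clusters. Fosb was at 241 and 111 CPM (1.12), with 40.4% of its 99 knockout UMIs in 1 cell, and at 0.21 (interval -0.55 to 0.88) in T cell clusters. The sort was meant to remove T cells, and the few knockout cells in this gate are not a matched set.

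The number of members found per cell also follows from how many cells have each gene. The share expected without a link between genes was not computed. With all cells at 2000 UMIs, 5 or more of the 10 genes were found in 60.8% (57.6 to 63.9) of knockout and 69.6% (66.3 to 72.8) of WT ILC3, in 45.7% and 52.7% of ILC2, in 49.0% and 54.5% of ILC1/NK cells, and in 51.5% and 67.0% of myeloid-gated cells. The T cell gate went the other way, with 38.1% in the knockout and 27.3% in WT. Fosb was found in 44.5% of knockout ILC3 with a Fos UMI and 16.7% of those without, and in WT in 49.5% and 21.4%. Nr4a1 was found in 51.2% of knockout ILC3 with Fos and 31.9% of those without, and in WT in 71.0% and 40.5%. Atf3 in knockout ILC3 was as frequent with Jun (14.7%) as without (14.5%), while in WT it was in 20.8% of cells with Jun and 5.26% of the 76 without. These shares describe cells of 1 library each.

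Other genes around these factors were counted by the same 1.5-fold rule. Of 26 other immediate-early genes, 24 were measured in ILC3, of which 6 were lower and 0 higher, with a median of -0.33, against 4.27% and 15.1% of all genes and their median of 0.17. Among the lower were Zfp36 itself, Dusp2, a phosphatase of MAP kinases (21.3 CPM in the knockout, 74.998 in WT, -1.82), Gadd45b, a stress sensor (911 and 1828 CPM, -1.004), and Ier2 (577 and 953 CPM, -0.72). Of the 86 knockout and 291 WT UMIs of Dusp2 in ILC3, 69 and 255 lay in NCR+ ILC3. In ILC2, 4 of 23 were lower and 1 higher, against 2.97% and 16.2% of all genes. Zfp36 (-1.07) and Gadd45b (631 and 1054 CPM, -0.74) were among the lower, and Dusp2 went in the other direction at 43.4 and 24.4 CPM (0.83). The lower counts in ILC3 and ILC2 thus include Zfp36, the gene of the knockout.

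The MAP kinase and upstream list had 18 of 18 genes measured in ILC3, with 3 higher, 0 lower and a median of 0.34, against 15.1% higher and 4.27% lower of all genes, so the count was near the background. The 3 were Nab1 (84.6 and 49.0 CPM, 0.79) and Nab2 (34.1 and 20.6 CPM, 0.73), corepressors of Egr proteins, and Mapk9, a Jun kinase (51.2 and 30.9 CPM, 0.73). Of other bZIP factors, 18 of 20 were measured in ILC3, with Atf6 (0.80) and Atf2 (0.72) higher and Maff (-0.73) lower, and a median of 0.21, which is also near the background and the median of all genes (0.17). The heat-shock list had 0 higher and 0 lower of 12 in ILC3 and a median of 0.05. Among ILC1/NK cells, 4 of 11 heat-shock genes were lower, against 4.79% of all genes, among them Hspa1a (175 and 484 CPM, -1.47) and Dnajb1 (63.2 and 159 CPM, -1.33). In ILC2, 3 of 12 were higher, against 16.2% of all genes, and 1 was lower, against 2.97% (Hspa1a, 163 and 279 CPM, -0.77).

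Over 14 points (7 classes in 2 libraries), the genes most like Junb in log2(CPM + 10), of 8144 screened, were Nsmce4a (Pearson r = 0.95), Srsf5 (0.94) and Gadd45b (0.94). Those most like Fos were Irs2 (0.94), Vkorc1 (0.91) and Adssl1 (0.91), and Atf3 was most like Glipr1 (0.94). Among the members, Junb went with Jund (0.91) and Fos with Fosb (0.83), but Fos with Junb only at 0.23. The points share libraries and class makeup, and the values are a description.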

How the data were processed

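Both libraries were made with the 10x Genomics Chromium 3′ v2 kit, per the labels' protocols. The deposited values are raw UMI counts per gene and barcode, made by the authors with Cell Ranger 3.1.0, per the file headers, on build mm10, per the submitters' processing notes; the annotation release is not given in the sources used here. Barcodes with under 500 genes or over 10% mitochondrial UMIs were removed, with doublets predicted by Scrublet in scanpy 1.11.5 (5 knockout, 37 WT, or 0.15% and 1.09%; the caller found almost none in the knockout, so doublets there may remain).

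Cells passing 1 of the B or plasma (2 of 6 markers), myeloid (3 of 17) or T (3 of 8) gates took that class, and those passing several (121 knockout, 210 WT) were left out. Other cells took the ILC class with most of its 8 markers, at least 2, and 257 knockout and 306 WT cells stayed unassigned. ILC3 with UMIs of both Ccr6 and Ncr1 (35 knockout, 22 WT) were in no subset. UMIs were summed per class and scaled to 1000000 per class (CPM), with exact Poisson intervals. Ratios have exact 95% binomial intervals of the split of UMIs, shares of cells exact Clopper-Pearson intervals. A count of 0 allows up to 3 counts. No p-value was computed, since each genotype is 1 library. The computation was tested on simulated data with counting error only, so that test says nothing of spread between cells.

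Clusters are from the Leiden algorithm (2000 variable genes without the 10 genes and the listed genes, 30 components, 15 neighbours, resolution 1). The 10 genes and the other gene lists were chosen with earlier results of these data known. From each list at most 4 genes per class qualify for naming, those past 1.5-fold with an interval excluding 0, by the end of the interval nearest 0. For each of the 10 genes, the 3 most alike among genes with 500 or more UMIs in the kept cells qualify. The comparison of gate with cluster, the C1q split and the weighting of clusters were added after seeing the data. Python 3.11.15, numpy 2.4.6, scipy 1.17.1 and matplotlib 3.10.9 were used.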

Additional observations from a re-analysis of the deposited data

Results flagged for a closer look

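Atf3 had opposite directions between classes. Its log2 ratio was 1.17 in ILC1/NK cells, where 48.2% of the knockout UMIs came from 1 cell, against -0.59 in NCR+ ILC3, -0.99 in ILC2, -0.96 in the T cell gate and -0.66 in the myeloid gate. These differences between classes were not tested. The T cell value rests on 9 knockout UMIs, and the ILC2 value was 0.015 with clusters weighted to their WT shares.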

How the results depend on the processing

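No paired analysis was possible because each genotype is 1 library with no replicates. Of 761 recomputed ratios, 46 had the other sign than the reported one, most of them from ratios under 1.5-fold, such as Fos in ILC1/NK cells (0.16, and -0.53 in cells of matching cluster) and Nr4a1 in ILC2 (-0.16, and 0.49 with clusters weighted). Of ratios past 1.5-fold, 3 had the other sign: Egr1 in ILC3 with neither receptor (0.0017 without the 5% of cells with most UMIs), Atf3 in the T cell gate (0.84 with classes from clusters) and Atf3 in ILC2 (0.015 with clusters weighted, a setting added after seeing the data). Junb was below 0 in every class under every alternative, from -0.85 to -0.58 in ILC3 and from -0.79 to -0.24 in ILC2. Counts of members lower or higher by 1.5-fold are small and moved as follows. With Xist cells only, 0 were lower in ILC3, 0 lower and 1 higher in CCR6+ ILC3, 0 lower in NCR+ ILC3 and 2 lower in the T cell gate. Relative to the median of all genes, 4 were lower in NCR+ ILC3, 5 with neither receptor and 2 in the T cell gate. Without ribosomal and mitochondrial genes in the scaling, 4 were lower with neither receptor, and with 3 or more markers per gate 1 was. With classes from clusters, 1 was lower in ILC2, 2 lower and 0 higher in ILC1/NK cells and 2 higher in the T cell gate. In cells whose gate and cluster had the same name, 2 were lower in ILC1/NK cells, 3 in the T cell gate and 3 in the myeloid gate. Without the 5% of cells with most UMIs, 1 was higher in NCR+ ILC3, 0 lower and 0 higher in ILC1/NK cells, 3 higher in the T cell gate and 1 higher in the myeloid gate. A minimum of 200 UMIs left 0 lower and 0 higher in ILC1/NK cells, and equal weight per cell gave 1 higher in the myeloid gate. In C1q cells 3 were lower. With clusters weighted, 0 were lower in ILC2 and 2 in ILC1/NK cells. The cause of these moves was not tested. Depth limits Egr2 in all classes but the myeloid gate.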
